A study of Mus musculus with 10 samples.

Results

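The collagen chains of the mouse heart are described here as a family, from type I to type XXVIII. The members are all genes of the deposited tables whose symbol is Col, a number, the letter a and a second number, and there are 44 of them among 17575 genes. By the number of the type, 11 are fibrillar chains, 8 belong to basement membrane, 9 are fibril associated and 16 are other chains, among them the beaded filament, anchoring, network forming and transmembrane collagens. RNA was sequenced from whole hearts of 1 week old mice, 4 of them Ft1sm22ko, 3 Ft1ko and 3 WT. Ft1 is the mouse gene Aktip. Ft1ko mice carry its deletion in the whole body, made with a Cre under the CMV promoter, and in Ft1sm22ko mice the Cre is driven by the promoter of sm22 (Tagln), which is active in smooth muscle and, for a time, in the muscle of the embryonic heart. WT hearts are the controls for both. According to the methods the mice were male.

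Each collagen molecule is a triple helix wound from α chains, which may be copies of a single gene product or of different ones. Fibrillar collagens I, II, III, V, XI, XXIV and XXVII give tissues tensile strength, and in the heart types I and III form most of the fibrils between muscle cells. Type IV makes the sheet-like network of basement membranes around muscle cells and vessels, where XV and XVIII are also found. Fibril associated collagens sit on the surface of fibrils. Collagen VI forms beaded filaments, VII anchoring fibrils and VIII hexagonal networks, while XIII, XVII, XXIII and XXV span the cell membrane. Fibroblasts are the main source of fibrillar collagen in the heart.

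The authors' deposited tables give for each gene and pair of genotypes a mean normalized count over the hearts of both groups, a log2 fold change with its standard error (SE) and a Wald p, and hold no value for a single heart. The means of the 2 groups were therefore computed here from the mean and the fold change and carry no SD, and whether single hearts overlap between groups cannot be read. All folds are given as log2 of mutant over WT, or of Ft1sm22ko over Ft1ko. A chain was called higher or lower at an adjusted p under 0.05 (Benjamini-Hochberg, over all genes with a p in that table). Both comparisons with WT use the same 3 WT hearts. Each table has its own scale of normalized counts, so that WT values differ between them by a factor of 1.35.

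The targeted gene was lower in both mutants. Aktip averaged 387 normalized counts in Ft1sm22ko hearts, against 894 in WT hearts (-1.21 ± 0.27, SE, adjusted p = 1.07e-04), and 175 in Ft1ko hearts, against 664 in WT hearts (-1.93 ± 0.27, adjusted p = 5.08e-11). These counts are for the gene as a whole. Over the region with the deletion, the paper reports no transcripts in Ft1ko mice and fewer in Ft1sm22ko mice. Markers of other cell types were counted beside the share of all genes called, which was 16.2% higher and 16.0% lower in Ft1sm22ko hearts and 19.7% higher and 16.1% lower in Ft1ko hearts. With lists of 4 to 9 genes, a count of 1 is near these shares, and no list was tested as a set. The 6 cardiomyocyte markers summed to 674706 normalized counts in Ft1sm22ko hearts, against 1708370 in WT hearts, with 4 of 6 lower, and to 240420 in Ft1ko hearts, against 1269340 in WT hearts, with 6 of 6 lower. Of 9 general fibroblast markers 5 were higher in Ft1sm22ko hearts and 3 in Ft1ko hearts. Their sum was 31537 in Ft1sm22ko hearts, against 21601 in WT hearts, with a median log2 fold of 0.72. In Ft1ko hearts it was 15274, against 16079 in WT hearts, with a median of -0.07. Of 7 activated fibroblast markers 5 were higher in Ft1sm22ko hearts and 4 in Ft1ko hearts. Of 5 endothelial markers 1 and 0 were higher, with 1 lower in Ft1sm22ko hearts. Of 8 epicardial and mesothelial markers 6 were higher in each mutant. All 8 lung epithelium markers were higher in Ft1ko hearts and summed to 48767 normalized counts, against 435 in WT hearts. The SE of their log2 folds ran from 1.49 (Ager) to 2.74 (Sftpc). Whether every Ft1ko heart shared the rise cannot be read. In Ft1sm22ko hearts the 8 lung markers summed to 3876, against 597 in WT hearts, and only 1 of the 8 has a p there. Of that sum Scgb1a1 alone gave 3210, against 100 in WT hearts, while Ager had 58.8, against 320 in WT hearts. Further lists gave 1 of 4 Schwann cell markers higher in Ft1sm22ko hearts and 2 in Ft1ko hearts, 3 and 4 of 5 endocardial markers higher, and 2 and 3 of 4 fat markers higher, with 1 lower in Ft1ko hearts. Of 6 smooth muscle markers 2 were higher and 1 lower in Ft1sm22ko hearts, and 3 higher and 2 lower in Ft1ko hearts. Of 5 pericyte markers 1 was higher in each mutant, with 4 lower in Ft1ko hearts. Of 4 skeletal muscle markers 0 were called in Ft1sm22ko hearts and 2 were lower in Ft1ko hearts. Those 2 were Ckm (30702 normalized counts in WT hearts) and Acta1 (664), while Myh1 (8.48) and Mylpf (22.8) were not called. The 5 thymus markers have no p in the Ft1ko table, where they summed to 3424 normalized counts in Ft1ko hearts, against 32.1 in WT hearts, and 0 of 4 were called in Ft1sm22ko hearts. The part of these differences in the collagen results was not tested. In whole hearts a change in the number of cells of a type and in RNA per cell cannot be told apart.

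Of the 43 collagen chains in the table of Ft1sm22ko against WT, 23 were higher and 4 lower, where 16.2% of all genes with a p were higher and 16.0% lower. Of the 44 chains in the table of Ft1ko against WT, 26 were higher and 3 lower, where 19.7% of all genes were higher and 16.1% lower. The median chain had a log2 fold change of 0.97 in Ft1sm22ko hearts, with a median of 0.06 over all genes, and of 1.65 in Ft1ko hearts, with 0.13 over all genes. The mean over both groups reached 100 normalized counts in 27 of the 43 chains with Ft1sm22ko hearts and in 28 of the 44 with Ft1ko hearts. Bonferroni adjustment left 16 chains higher and 0 lower in Ft1sm22ko hearts, and 13 higher and 1 lower in Ft1ko hearts. The single chain that stayed lower in Ft1ko hearts was Col5a3. Folds worked out from the mean columns alone were larger by over 1.5 times for Col12a1 (log2 of 4.39 in Ft1sm22ko hearts and 5.43 in Ft1ko hearts), Col24a1 (4.23 and 5.61) and Col6a4 (6.14 and 8.83), with the direction kept.

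**Figure D1:**
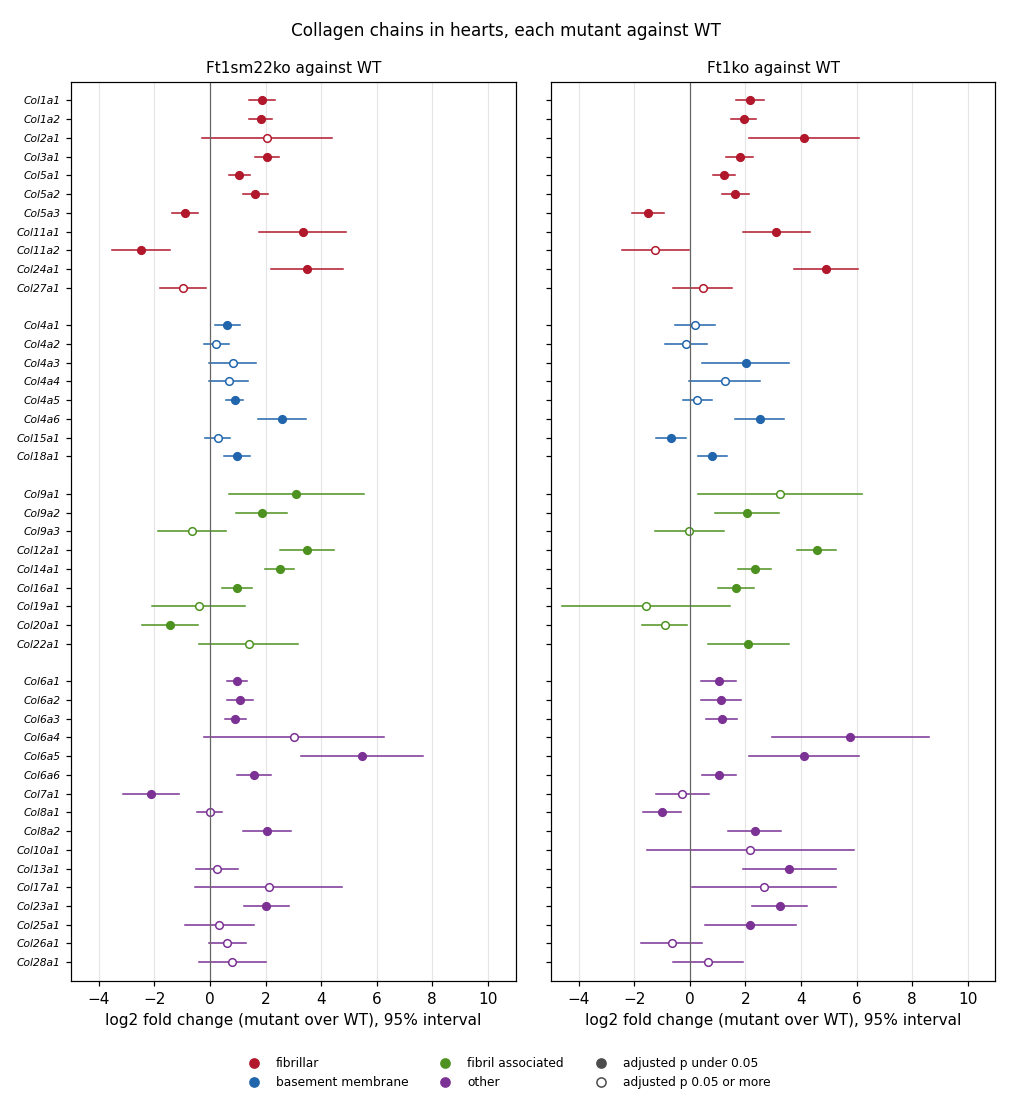
Log2 fold change of every collagen chain in Ft1sm22ko hearts against WT (left) and in Ft1ko hearts against WT (right). Points are the deposited estimates with sign set as mutant over WT, lines their 95% interval, and filled points an adjusted p under 0.05. The 3 main fibril chains Col1a1, Col1a2 and Col3a1 lie between 1.80 and 2.17 in both panels with short intervals, and Col4a1 and Col4a2 lie between -0.13 and 0.62.

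The main fibril chains rose the most in absolute counts. Col3a1, the only chain of collagen III, averaged 65408 normalized counts in Ft1sm22ko hearts, against 15773 in WT hearts (2.05 ± 0.22, adjusted p = 7.59e-18), and 40784 in Ft1ko hearts, against 11728 in WT hearts (1.80 ± 0.25, adjusted p = 3.28e-11). Col1a1 and Col1a2 make collagen I in a ratio fixed by the molecule. Col1a1 averaged 29230 in Ft1sm22ko hearts, against 7974 in WT hearts (1.87 ± 0.23, adjusted p = 1.68e-13), and 26595 in Ft1ko hearts, against 5918 in WT hearts (2.17 ± 0.26, adjusted p = 7.20e-15). Col1a2 averaged 25428 in Ft1sm22ko hearts, against 7172 in WT hearts (1.83 ± 0.21, adjusted p = 4.43e-16), and 20288 in Ft1ko hearts, against 5312 in WT hearts (1.93 ± 0.24, adjusted p = 4.50e-14). The folds of the 2 chains of collagen I differed by 0.05 in Ft1sm22ko hearts and by 0.23 in Ft1ko hearts, in each case by less than the SE of either chain.

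Collagen V is incorporated into the core of type I fibrils, and its 3 chains moved in opposite directions. Col5a1 averaged 6929 normalized counts in Ft1sm22ko hearts, against 3344 in WT hearts (1.05 ± 0.19, adjusted p = 7.03e-07), and 5865 in Ft1ko hearts, against 2480 in WT hearts (1.24 ± 0.20, adjusted p = 2.64e-08). Col5a2 averaged 5067 in Ft1sm22ko hearts, against 1635 in WT hearts (1.63 ± 0.22, adjusted p = 2.46e-11), and 3762 in Ft1ko hearts, against 1210 in WT hearts (1.64 ± 0.25, adjusted p = 1.77e-09). The third chain, Col5a3, fell to 840 in Ft1sm22ko hearts, against 1562 in WT hearts (-0.90 ± 0.24, adjusted p = 0.00110), and to 408 in Ft1ko hearts, against 1161 in WT hearts (-1.51 ± 0.30, adjusted p = 5.39e-06). The interval of Col5a3 did not overlap those of Col5a1 and Col5a2 in either mutant.

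Within each genotype the remaining fibrillar chains had lower levels per kb than those of types I, III and V. Col11a1, whose product joins Col2a1 and Col11a2 in cartilage collagen, averaged 123 normalized counts in Ft1sm22ko hearts, against 12.1 in WT hearts (3.34 ± 0.80, adjusted p = 2.67e-04), and 75.3 in Ft1ko hearts, against 8.70 in WT hearts (3.11 ± 0.61, adjusted p = 5.79e-06). Its partner Col11a2 went the other way. It averaged 51.9 in Ft1sm22ko hearts, against 287 in WT hearts (-2.47 ± 0.53, adjusted p = 4.22e-05), and had 89.7 in Ft1ko hearts, against 211 in WT hearts, without passing the test (-1.23 ± 0.61, adjusted p = 0.100). Col24a1, a minor fibrillar chain known from bone, averaged 116 in Ft1sm22ko hearts, against 10.4 in WT hearts (3.48 ± 0.67, adjusted p = 3.47e-06), and 223 in Ft1ko hearts, against 7.46 in WT hearts (4.90 ± 0.58, adjusted p = 7.19e-15). Col2a1, the cartilage chain, was called in Ft1ko hearts alone, from a mean of 38.8 normalized counts, against 2.24 in WT hearts (4.11 ± 1.02, adjusted p = 3.78e-04), and in Ft1sm22ko hearts it had 13.1, against 3.16 in WT hearts (2.05 ± 1.19, adjusted p = 0.185). Col27a1, a fibrillar chain of cartilage and other tissues, was not called, with -0.97 ± 0.42 in Ft1sm22ko hearts (adjusted p = 0.0581) and 0.47 ± 0.54 in Ft1ko hearts (adjusted p = 0.531). Beside the cartilage chains, of 9 valve and cartilage markers 5 were listed in the Ft1sm22ko table with 3 higher, and 6 were listed in the Ft1ko table with 5 higher, and the part of such cells in these values was not tested.

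The fibrillar chains whose folds split are also shown by their promoters, since Col5a1 against Col5a3 and Col11a1 against Col11a2 are pairs of chains of 1 type that moved in opposite directions in Ft1sm22ko hearts, and Col3a1 was the chain with the highest level in both mutants. The 120 bases before the start site are given 5′ to 3′ on the strand of the gene, from the promoter windows of RefSeq for GRCm38.p6. Capitals mark the motifs searched on both strands, which are the CCAAT box, spelled as its name, the GC box (GGGCGG) and the TATA box (TATAAA). No matches share bases in the windows shown.
Col3a1: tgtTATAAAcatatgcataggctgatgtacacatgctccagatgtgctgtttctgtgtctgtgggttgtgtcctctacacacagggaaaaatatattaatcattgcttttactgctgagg
Col5a1: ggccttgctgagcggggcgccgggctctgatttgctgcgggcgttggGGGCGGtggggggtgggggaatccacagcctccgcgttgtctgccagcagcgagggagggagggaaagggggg
Col5a3: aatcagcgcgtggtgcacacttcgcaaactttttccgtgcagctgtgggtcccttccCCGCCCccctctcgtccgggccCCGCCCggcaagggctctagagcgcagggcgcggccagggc
Col11a1: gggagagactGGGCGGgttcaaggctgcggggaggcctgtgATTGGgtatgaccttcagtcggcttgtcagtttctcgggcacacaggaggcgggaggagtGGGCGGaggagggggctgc
Col11a2: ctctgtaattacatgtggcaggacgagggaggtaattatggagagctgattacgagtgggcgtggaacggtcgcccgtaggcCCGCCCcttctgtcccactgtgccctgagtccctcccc
The windows are chr1:45311418-45311537 (plus strand) for Col3a1, chr2:27886305-27886424 (plus) for Col5a1, chr9:20815068-20815187 (minus) for Col5a3, chr3:114030420-114030539 (plus) for Col11a1 and chr17:34039018-34039137 (plus) for Col11a2. They overlap no exon of the GENCODE M21 annotation. Col3a1 has a TATAAA and no GGGCGG here, with a GC content of 40.0%, while the other 4 have 1 or 2 GGGCGG and a GC content of 60.0% to 72.5%. RefSeq windows were found for 35 of the 44 chains. Over the 250 bases before the start, GGGCGG was present in 57.9% of the 38 collagen windows and in 32.7% of all 32851 windows, CCAAT in 34.2% and 33.8%, and TATAAA in 13.2% and 12.4%. Chains with the motif stood in both directions of change, as Col5a1 and Col5a3 both carry GGGCGG. A match is a description of the letters and was not tested as a site.

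In basement membrane the main chains had folds between -0.13 and 0.62, and only Col4a1 in Ft1sm22ko hearts was called. Col4a1 and Col4a2 are the ubiquitous chains of collagen IV. Col4a1 rose to 26861 normalized counts in Ft1sm22ko hearts, against 17478 in WT hearts (0.62 ± 0.23, adjusted p = 0.0238), and had 14677 in Ft1ko hearts, against 12994 in WT hearts (0.18 ± 0.37, adjusted p = 0.742). Col4a2 had 19452 in Ft1sm22ko hearts, against 16585 in WT hearts (0.23 ± 0.23, adjusted p = 0.478), and 11290 in Ft1ko hearts, against 12331 in WT hearts (-0.13 ± 0.39, adjusted p = 0.827). In Ft1ko hearts the 95% interval ran from -0.54 to 0.90 for Col4a1 and from -0.89 to 0.63 for Col4a2. These are the ranges of changes these data leave possible.

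The minor chains of collagen IV differed from these. Col4a5 averaged 1547 normalized counts in Ft1sm22ko hearts, against 838 in WT hearts (0.88 ± 0.16, adjusted p = 9.15e-07), and 751 in Ft1ko hearts, against 621 in WT hearts, where it was not called (0.28 ± 0.26, adjusted p = 0.437). Col4a6, which pairs with Col4a5 in smooth muscle and some epithelial membranes, averaged 240 in Ft1sm22ko hearts, against 39.7 in WT hearts (2.60 ± 0.44, adjusted p = 1.65e-07), and 168 in Ft1ko hearts, against 29.3 in WT hearts (2.52 ± 0.45, adjusted p = 6.43e-07). Col4a3 and Col4a4, chains of the membranes of kidney and lung among others, were higher only in part. Col4a3 was called in Ft1ko hearts, with 386 against 95.9 in WT hearts (2.01 ± 0.79, adjusted p = 0.0341), and not in Ft1sm22ko hearts, with 227 against 129 in WT hearts (0.81 ± 0.43, adjusted p = 0.133). Col4a4 was not called in either, at 0.67 ± 0.36 in Ft1sm22ko hearts and 1.26 ± 0.65 in Ft1ko hearts. The higher sums of the lung epithelium and thymus markers in Ft1ko hearts stand beside the Col4a3 value, and their part was not tested.

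The 6 chains of collagen IV lie as head to head pairs in the GENCODE M21 annotation (GRCm38). Col4a1 and Col4a2 overlap by 22 bases on chromosome 8 (11198423 to 11312826 and 11312805 to 11449287), Col4a4 and Col4a3 are 71 bases apart on chromosome 1 (82448423 to 82586849 and 82586921 to 82722059), and Col4a6 and Col4a5 are 1308 bases apart on chromosome X (141165403 to 141474076 and 141475385 to 141689234). Within a pair the folds lay 0.39, 0.15 and 1.71 apart in Ft1sm22ko hearts and 0.30, 0.75 and 2.24 apart in Ft1ko hearts, in the same order, so that the chains of the pair on chromosome X differed most. Among further neighbours within 200 kb, Col3a1 and Col5a2 lie tail to tail on chromosome 1, 24614 bases apart, both higher in each mutant. Col9a1 and Col19a1, both with means under 10 normalized counts, are 9205 bases apart. Their folds lay 3.52 apart in Ft1sm22ko hearts and 4.84 apart in Ft1ko hearts. For Col6a2 and Col6a1 these values were 0.12 and 0.09, for Col6a6 and Col6a5 3.88 and 3.06, and for Col6a5 and Col6a4 2.44 and 1.68.

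Collagens XV and XVIII, whose tails give endostatin-like fragments, followed separate courses. Col18a1 averaged 2037 normalized counts in Ft1sm22ko hearts, against 1036 in WT hearts (0.97 ± 0.24, adjusted p = 3.12e-04), and 1354 in Ft1ko hearts, against 769 in WT hearts (0.82 ± 0.26, adjusted p = 0.00731). Col15a1 fell to 2299 in Ft1ko hearts, against 3677 in WT hearts (-0.68 ± 0.28, adjusted p = 0.0414), and had 6007 in Ft1sm22ko hearts, against 4961 in WT hearts (0.28 ± 0.23, adjusted p = 0.374). The fall of Col15a1 in Ft1ko hearts was lost when folds were centred on the median of genes with a mean of at least 100.

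The 3 fibril associated chains with a mean of 100 or more against WT rose in both mutants. Col14a1, which binds the surface of type I fibrils, averaged 3303 normalized counts in Ft1sm22ko hearts, against 580.5 in WT hearts (2.51 ± 0.27, adjusted p = 1.25e-18), and 2165 in Ft1ko hearts, against 430.2 in WT hearts (2.33 ± 0.30, adjusted p = 4.79e-13). Col12a1, a fibril associated chain of dense connective tissue, had the lowest p of the family in Ft1ko hearts, with 521 against 22.0 in WT hearts (4.56 ± 0.36, adjusted p = 8.21e-34), and 342 in Ft1sm22ko hearts, against 30.4 in WT hearts (3.50 ± 0.49, adjusted p = 1.18e-10). Col16a1 averaged 1050 in Ft1sm22ko hearts, against 537 in WT hearts (0.97 ± 0.28, adjusted p = 0.00343), and 1256 in Ft1ko hearts, against 397 in WT hearts (1.66 ± 0.32, adjusted p = 4.83e-06). Of the other 6 chains, all under a mean of 100 in the tables with WT, Col9a2 was higher in both, by 1.85 ± 0.47 in Ft1sm22ko hearts and 2.07 ± 0.59 in Ft1ko hearts. Col9a1 was called higher in Ft1sm22ko hearts alone (3.11 ± 1.24, adjusted p = 0.0404) and Col22a1 in Ft1ko hearts alone (2.10 ± 0.75, adjusted p = 0.0174). Col20a1 was lower in Ft1sm22ko hearts (-1.43 ± 0.52, adjusted p = 0.0216), and it was not called in Ft1ko hearts (-0.90 ± 0.42, adjusted p = 0.0766). Col9a3 and Col19a1 were not called.

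Col6a1, Col6a2 and Col6a3, which assemble into the same filament of collagen VI, rose by similar folds. Col6a1 averaged 6490 normalized counts in Ft1sm22ko hearts, against 3331 in WT hearts (0.96 ± 0.18, adjusted p = 2.89e-06), and 5097 in Ft1ko hearts, against 2476 in WT hearts (1.04 ± 0.32, adjusted p = 0.00596). Col6a2 averaged 7096 in Ft1sm22ko hearts, against 3360 in WT hearts (1.08 ± 0.23, adjusted p = 3.51e-05), and 5480 in Ft1ko hearts, against 2500 in WT hearts (1.13 ± 0.36, adjusted p = 0.00796). Col6a3 averaged 2775 in Ft1sm22ko hearts, against 1481 in WT hearts (0.91 ± 0.20, adjusted p = 4.53e-05), and 2435 in Ft1ko hearts, against 1099 in WT hearts (1.15 ± 0.29, adjusted p = 4.37e-04). The 3 folds spanned 0.17 in Ft1sm22ko hearts and 0.11 in Ft1ko hearts, under the SE of any of them.

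The other chains of type VI are thought to take the place of Col6a3. Col6a6 averaged 831 normalized counts in Ft1sm22ko hearts, against 278 in WT hearts (1.58 ± 0.31, adjusted p = 5.15e-06), and 425 in Ft1ko hearts, against 206 in WT hearts (1.04 ± 0.31, adjusted p = 0.00421). Col6a5 averaged 109.5 in Ft1sm22ko hearts, against 2.49 in WT hearts (5.46 ± 1.12, adjusted p = 1.72e-05), and 32.9 in Ft1ko hearts, against 1.92 in WT hearts (4.10 ± 1.01, adjusted p = 3.43e-04). Col6a4 was called in Ft1ko hearts alone, with 34.5 normalized counts, against 0.628 in WT hearts, so that its fitted fold (5.78 ± 1.43) rests on very few WT counts. In Ft1sm22ko hearts it had 6.91, against 0.851 in WT hearts (adjusted p = 0.151).

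Col7a1, the chain of anchoring fibrils under epithelia, fell to 45.0 normalized counts in Ft1sm22ko hearts, against 197 in WT hearts (-2.13 ± 0.51, adjusted p = 3.03e-04), and had 120 in Ft1ko hearts, against 145 in WT hearts (-0.27 ± 0.48, adjusted p = 0.698). The 2 chains of collagen VIII, a network of vessel walls, split. Col8a1 had 245 in Ft1sm22ko hearts, against 247 in WT hearts (-0.01 ± 0.23, adjusted p = 0.982), and fell to 91.3 in Ft1ko hearts, against 183 in WT hearts (-1.0 ± 0.35, adjusted p = 0.0154). Col8a2 averaged 81.5 in Ft1sm22ko hearts, against 19.7 in WT hearts (2.05 ± 0.44, adjusted p = 3.47e-05), and 74.0 in Ft1ko hearts, against 14.7 in WT hearts (2.33 ± 0.48, adjusted p = 1.79e-05). Col10a1, the chain of hypertrophic cartilage, was not called in Ft1ko hearts, at 2.87 normalized counts against 0.633 in WT hearts, and is absent from the table of Ft1sm22ko against WT. Col26a1 and Col28a1 were not called in either mutant against WT.

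The transmembrane chains rose mainly in Ft1ko hearts. Col13a1, which is known at the neuromuscular junction, averaged 464 normalized counts in Ft1ko hearts, against 38.7 in WT hearts (3.59 ± 0.85, adjusted p = 2.03e-04), and 61.5 in Ft1sm22ko hearts, against 51.4 in WT hearts (0.26 ± 0.38, adjusted p = 0.650). Col23a1 averaged 174 in Ft1sm22ko hearts, against 42.7 in WT hearts (2.03 ± 0.42, adjusted p = 1.61e-05), and 300 in Ft1ko hearts, against 31.8 in WT hearts (3.24 ± 0.50, adjusted p = 4.22e-09). Col25a1, known from developing motor nerves, averaged 109 in Ft1ko hearts, against 24.0 in WT hearts (2.18 ± 0.84, adjusted p = 0.0300), and 41.0 in Ft1sm22ko hearts, against 32.4 in WT hearts (0.34 ± 0.64, adjusted p = 0.726). Col17a1, of epithelial hemidesmosomes, was not called, at 2.10 ± 1.35 in Ft1sm22ko hearts and 2.68 ± 1.32 in Ft1ko hearts. Several marker lists had the same order of genotypes as Col13a1 and Col25a1, high in Ft1ko hearts and lower in Ft1sm22ko hearts. Among them were the sums of the lung epithelium, thymus, and valve and cartilage markers. The part of any of these was not tested.

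**Figure D2:**
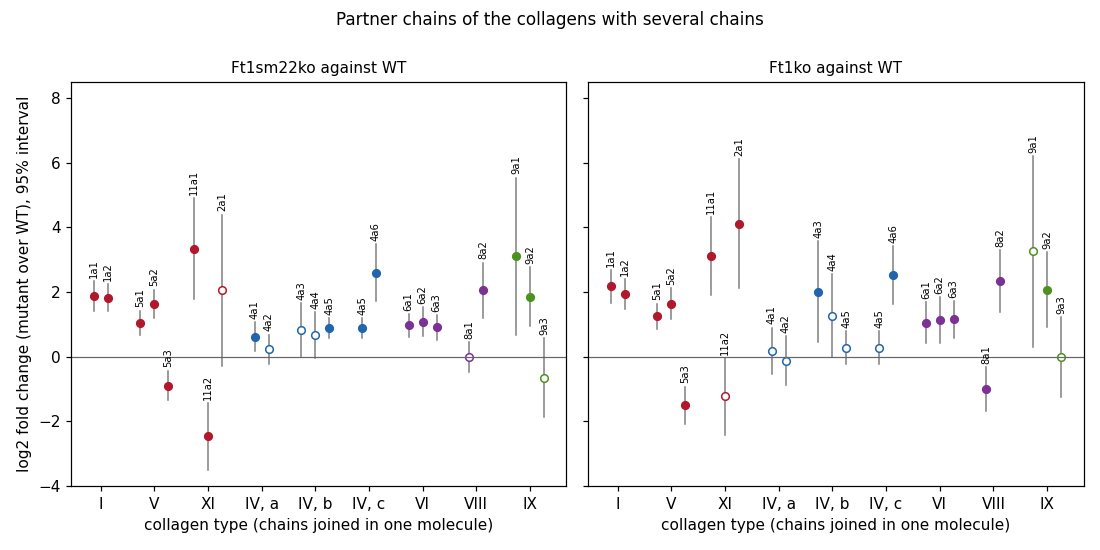
Log2 fold change against WT of the chains that join in a molecule, by collagen type, for Ft1sm22ko hearts (left) and Ft1ko hearts (right). Lines are 95% intervals, filled points an adjusted p under 0.05, and colours the classes (red fibrillar, blue basement membrane, purple other, green fibril associated), with IV split into its 3 known chain combinations. The chains of I and VI lie together, within 0.23 in either panel, and those of V, VIII and XI spread over 2.06 to 5.81.

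For the level of each chain, group means were set on a common scale by their WT values and divided by exonic length, as normalized counts per kb. The summed collagen level was 19513 normalized counts per kb in Ft1sm22ko hearts, 18404 in Ft1ko hearts and 8805 in WT hearts. Fibrillar chains gave 55.9% of it in Ft1sm22ko hearts, 60.3% in Ft1ko hearts and 36.2% in WT hearts, and basement membrane chains 30.8%, 24.1% and 50.1%. Fibril associated chains gave 2.66%, 3.13% and 1.68%, and other chains 10.7%, 12.5% and 12.0%. Col1a1, Col1a2 and Col3a1 together held 50.0%, 53.5% and 28.7%, while Col4a1 and Col4a2 held 24.9%, 20.0% and 40.9%. The level of basement membrane chains was 6003 normalized counts per kb in Ft1sm22ko hearts, 4436 in Ft1ko hearts and 4414 in WT hearts. These shares come from group means and have no error over hearts.

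**Figure D3:**
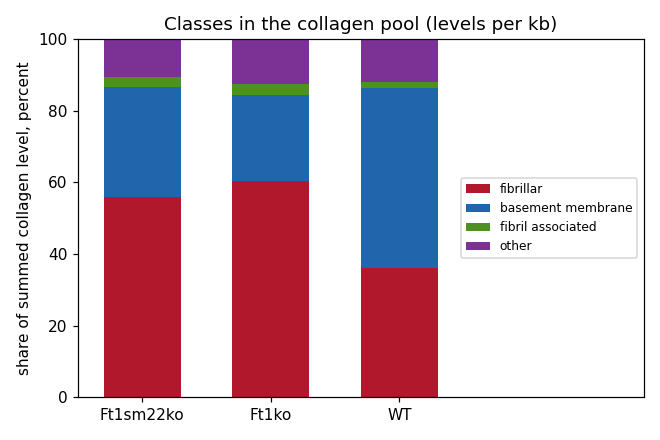
Share of each class in the summed collagen level (normalized counts per kb of exonic length, group means) in Ft1sm22ko, Ft1ko and WT hearts. The bars show fibrillar shares of 55.9%, 60.3% and 36.2% from left to right, and basement membrane shares of 30.8%, 24.1% and 50.1%.

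The order of the levels per kb changed at its top. In WT hearts Col4a2 (1863 normalized counts per kb) and Col4a1 (1741) stood above Col3a1 (1195) and Col1a1 (902). In Ft1sm22ko hearts Col3a1 (4944) and Col1a1 (3304) stood above Col4a1 (2670) and Col4a2 (2180), and in Ft1ko hearts Col3a1 (4155) and Col1a1 (4052) stood above Col4a1 (1966) and Col4a2 (1706). Ratios of chains per kb differed between genotypes as well. Among partners, Col11a2 over Col11a1 was 0.785 in Ft1sm22ko hearts, 2.21 in Ft1ko hearts and 44.9 in WT hearts. Col5a3 over Col5a1 was 0.151 in Ft1sm22ko hearts, 0.0868 in Ft1ko hearts and 0.584 in WT hearts. Col4a5 over Col4a6 was 7.64, 5.31 and 25.1, and Col8a1 over Col8a2 was 1.72, 0.707 and 7.13. Col15a1 over Col18a1, which belong to separate types, was 3.26, 1.88 and 5.29. Col1a1 over Col1a2 stayed near 2.18, 2.48 and 2.11, and Col6a1 over Col6a2 near 1.74, 1.77 and 1.88. Lengths are the union of annotated exons, so ratios between genes depend on the annotation, whereas the comparison of a ratio between genotypes does not.

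**Figure D4:**
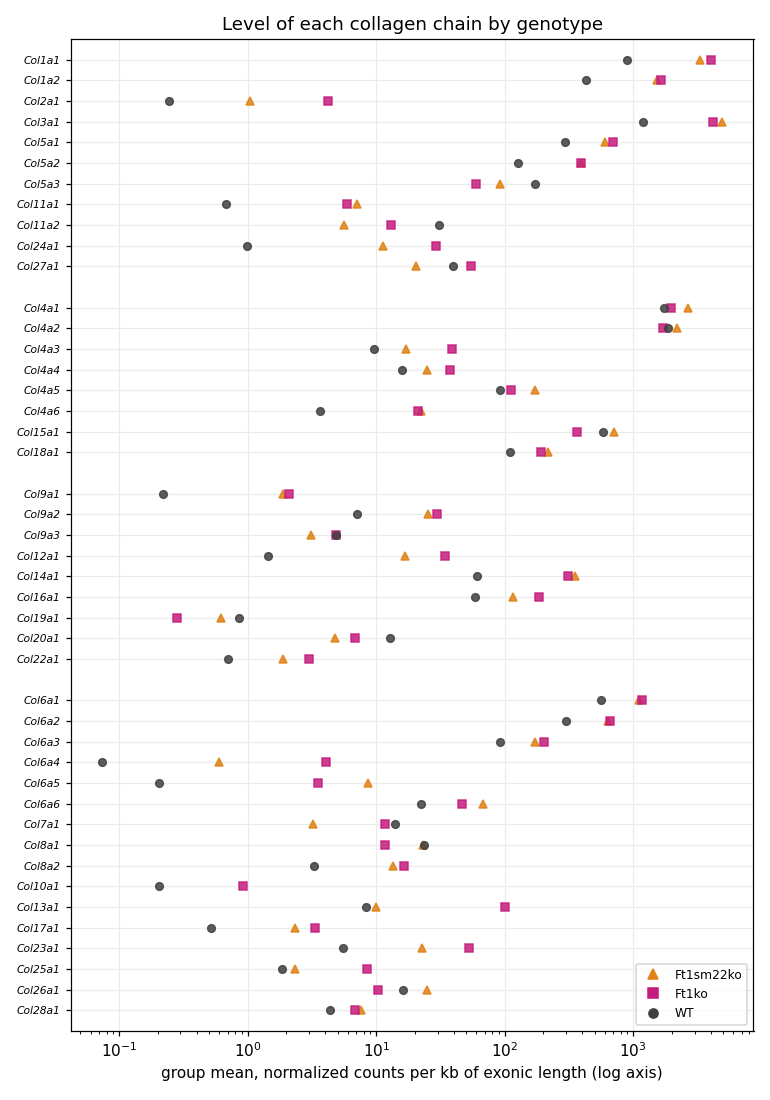
Group mean of each chain in normalized counts per kb of exonic length on a log axis, with triangles for Ft1sm22ko, squares for Ft1ko and circles for WT hearts. The levels run from 0.0736 (Col6a4 in WT hearts) to 4944 (Col3a1 in Ft1sm22ko hearts), and the Col5a3 and Col11a2 circles lie right of both mutants.

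The direct comparison sets loss of Ft1 in cells that express sm22 against its loss in the whole body. Of 44 chains 5 were higher and 10 lower in Ft1sm22ko than in Ft1ko hearts, where 10.8% of all genes with a p were higher and 9.0% lower, and the median chain had a log2 fold change of -0.21 (all genes: -0.05). None of the 15 passed Bonferroni adjustment. The main chains were not called, Col1a1 at -0.29 (95% interval -0.62 to 0.04), Col1a2 at -0.10 (-0.42 to 0.21), Col3a1 at 0.25 (-0.11 to 0.61), Col5a1 at -0.19 (-0.51 to 0.14) and Col5a2 at 0.00 (-0.35 to 0.35). Their intervals stay within a log2 difference of 1 between the mutants in either direction.

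Higher in Ft1sm22ko hearts were Col15a1, with 9676 normalized counts against 4959 in Ft1ko hearts (0.96 ± 0.25, adjusted p = 0.00176), Col4a5 with 2486 against 1624 (0.61 ± 0.17, adjusted p = 0.00375), Col5a3 with 1352 against 881 (0.62 ± 0.19, adjusted p = 0.00925), Col8a1 with 396 against 197 (1.01 ± 0.29, adjusted p = 0.00554) and Col26a1 with 440.3 against 181 (1.28 ± 0.40, adjusted p = 0.0114). A count of 5 of 44 chains is near the 10.8% of all genes that were higher in this comparison. The 5 include 2 chains of basement membrane and the chain of collagen V that was low in both mutants. Beside them, 4 of 6 cardiomyocyte markers were higher in Ft1sm22ko than in Ft1ko hearts, with a sum of 1086640 normalized counts in Ft1sm22ko hearts, against 517533 in Ft1ko hearts, as were 3 of 5 pericyte markers, with 14601 against 6568, and 2 of 9 fibroblast markers, with 50727 against 32976. Their part in these chains was not tested.

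Lower in Ft1sm22ko hearts were 3 transmembrane, 3 fibrillar and 2 fibril associated chains, with Col7a1 and Col6a4. Col13a1 had 97.3 normalized counts in Ft1sm22ko hearts, against 1006 in Ft1ko hearts (-3.37 ± 0.75, adjusted p = 2.07e-04), Col25a1 64.0 against 234 (-1.87 ± 0.60, adjusted p = 0.0145) and Col23a1 277 against 647 (-1.22 ± 0.42, adjusted p = 0.0257). Col27a1 had 569 in Ft1sm22ko hearts, against 1528 in Ft1ko hearts (-1.43 ± 0.31, adjusted p = 1.57e-04), and Col24a1 185 against 477 (-1.37 ± 0.43, adjusted p = 0.0126). Col12a1 had 546 in Ft1sm22ko hearts, against 1120 in Ft1ko hearts (-1.04 ± 0.38, adjusted p = 0.0361), and Col16a1 1679 against 2707 (-0.69 ± 0.22, adjusted p = 0.0123). Col7a1 had 71.2 in Ft1sm22ko hearts, against 257 in Ft1ko hearts (-1.85 ± 0.42, adjusted p = 3.41e-04). With few counts, Col2a1 had 20.4 against 82.9 in Ft1ko hearts (-2.02 ± 0.75, adjusted p = 0.0377) and Col6a4 11.1 against 74.9 (-2.76 ± 0.88, adjusted p = 0.0139). In the same comparison the 8 lung epithelium markers summed to 6086 normalized counts in Ft1sm22ko hearts, against 105673 in Ft1ko hearts. Of the 8, 3 were lower. The thymus markers summed to 146 in Ft1sm22ko hearts, against 7366 in Ft1ko hearts, and have no p. Valve and cartilage markers summed to 642 against 1059, with 2 lower and 1 higher. The part of any of these lists in the chains above was not tested.

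**Figure D5:**
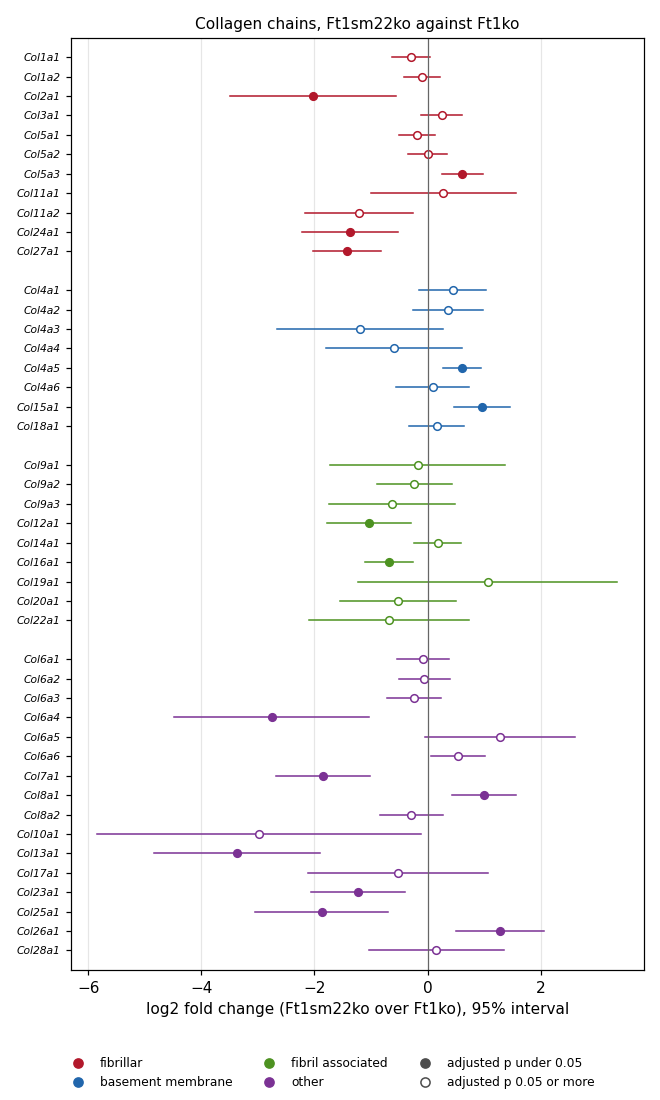
Log2 fold change of every chain in Ft1sm22ko over Ft1ko hearts, with 95% intervals and filled points for an adjusted p under 0.05. The largest difference is Col13a1 at -3.37, and Col1a1, Col1a2, Col3a1, Col6a1, Col6a2 and Col6a3 lie between -0.29 and 0.25.

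The genes that make, bind and break down collagen were followed as a list of 74. Of the 70 in the table of Ft1sm22ko against WT, 34 were higher and 4 lower, and of the 69 in the table of Ft1ko against WT, 27 were higher and 4 lower. Among 36 genes of collagen making and crosslinking, 17 were higher and 3 lower in Ft1sm22ko hearts, and 12 were higher and 4 lower in Ft1ko hearts. P4ha3, a prolyl hydroxylase subunit, had 164 normalized counts in Ft1sm22ko hearts, against 5.21 in WT hearts (4.97 ± 0.76, adjusted p = 2.92e-09), and 352 in Ft1ko hearts, against 3.84 in WT hearts (6.52 ± 0.69, adjusted p = 6.56e-19). Lox, the crosslinking oxidase, had 1458 in Ft1sm22ko hearts, against 280 in WT hearts (2.38 ± 0.39, adjusted p = 5.45e-08), and 1681 in Ft1ko hearts, against 206 in WT hearts (3.03 ± 0.45, adjusted p = 5.15e-10). Of 15 fibril partners 11 were higher in Ft1sm22ko hearts and 9 in Ft1ko hearts, with none lower, among them fibronectin (Fn1, 2.46 ± 0.31 and 2.80 ± 0.27), periostin (Postn, 2.65 ± 0.25 and 2.62 ± 0.25) and fibromodulin (Fmod, 3.26 ± 0.42 and 2.72 ± 0.50). Of the collagen receptors 3 of 11 were higher and 1 lower in Ft1sm22ko hearts, and 2 of 10 were higher in Ft1ko hearts, counts near the shares of all genes given above (16.2% and 19.7% higher, 16.0% lower in Ft1sm22ko hearts). Of 8 genes of collagen breakdown 3 were higher in Ft1sm22ko hearts and 4 in Ft1ko hearts. Between the mutants 7 of the 70 were higher and 4 lower in Ft1sm22ko hearts, which is no more than the shares of all genes in that table (10.8% and 9.0%).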

How the data were processed

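RNA was extracted with TRIzol from hearts of 10 mice, made into libraries with the Universal Plus mRNA-Seq kit, sequenced, aligned with STAR to a reference that paper and records name hg38 (the gene symbols are mouse), processed with StringTie and counted with htseq-count. The authors fitted DESeq2 to each pair of genotypes. The deposited mean signal is the mean of counts divided by size factors, and the depth of single libraries is unknown. The deposited fold change and SE are on the log2 scale, the score column deposited beside them holds Wald statistics, and a two-sided p-value from each was deposited by the authors. The authors' adjusted p column was used as an alternative only. These columns of the authors' own comparisons were used here because they are the only values at hand, with their sign turned to mutant over WT, or Ft1sm22ko over Ft1ko. The direction was checked on the mean columns alone, where every gene with an absolute log2 fold of at least 1 kept its sign among those with a mean of 100 or more in all tables.

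No model over hearts could be fitted. Group means were computed from the mean signal, the fold and the number of hearts. The p were adjusted by Benjamini-Hochberg over all genes with a p, 16661, 16748 and 17169 of them, with a threshold of 0.05 (python 3.11.15, numpy 2.4.6, pandas 2.3.3, scipy 1.17.1, matplotlib 3.10.9). Scripts were tested on simulated data. Exonic lengths come from GENCODE M21 and promoters from RefSeq GRCm38.p6. Levels of the 2 tables with WT were scaled by 1.35, from 9789 genes. The labels do not say that hearts came from separate litters, so p-values measure the spread between these hearts. The members and lists were chosen with earlier results of these data known. Every member was named. Members called at a mean of 100 normalized counts or more were given in full, and other genes named are Aktip and list members with the smallest p or that define another cell type. Alternatives were Bonferroni, the deposited adjusted p, a limit of 1 on the log2 fold, means of at least 10 or 100, centring, folds from the mean columns, and, chosen after the data were seen, levels without length. The list of cell type markers also held Schwann cell, pericyte, smooth muscle, endocardial, fat, thymus and skeletal muscle genes.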

Additional observations from a re-analysis of the deposited data

Results flagged for a closer look

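The 15 chains that differ between Ft1sm22ko and Ft1ko hearts by the direct test have these log2 fold changes of Ft1sm22ko over Ft1ko. Lower in Ft1sm22ko hearts are Col13a1 (-3.37), Col6a4 (-2.76), Col2a1 (-2.02), Col25a1 (-1.87), Col7a1 (-1.85), Col27a1 (-1.43), Col24a1 (-1.37), Col23a1 (-1.22), Col12a1 (-1.04) and Col16a1 (-0.69). Higher are Col26a1 (1.28), Col8a1 (1.01), Col15a1 (0.96), Col5a3 (0.62) and Col4a5 (0.61). Single hearts are not given in the tables, so no heart could be examined as standing apart. Genes listed without a p numbered 277 in Ft1sm22ko against WT, 128 in Ft1ko against WT and 318 in Ft1sm22ko against Ft1ko. They include the 5 thymus markers in Ft1ko against WT. Whether a single heart lies behind such values was not tested.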

How the results depend on the processing

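No paired analysis was possible because the tables hold 1 value per gene and comparison and no value per heart, and for the same reason leaving out each heart in turn was not run. With Bonferroni adjustment the chains called fell to 13 higher and 1 lower in Ft1ko against WT, to 16 higher and 0 lower in Ft1sm22ko against WT, and to 0 higher and 0 lower in Ft1sm22ko against Ft1ko. A mean of at least 100 normalized counts, which tests fewer genes, left 17 higher in Ft1ko against WT, and the limit of 1 on the log2 fold left 2 higher in Ft1sm22ko against Ft1ko. The deposited adjusted p gave the same calls. Centring on the median of all genes added Col20a1 to the chains lower in Ft1ko hearts and Col27a1 to those lower in Ft1sm22ko hearts. The median log2 folds of the chains lay between 1.14 and 1.65 in Ft1ko against WT, between 0.92 and 0.97 in Ft1sm22ko against WT, and between -0.21 and -0.09 in Ft1sm22ko against Ft1ko under the 2 alternatives. Group means from the mean columns alone gave 0 reversed folds, and gave 7 of 42 chains a larger fold by more than their SE in each comparison with WT. These were Col1a1 (2.11 in Ft1sm22ko and 2.44 in Ft1ko hearts), Col1a2 (2.05 and 2.20), Col3a1 (2.29 and 2.10), Col14a1 (2.83 and 2.70), Col12a1 (4.39 and 5.43), Col24a1 (4.23 and 5.61) and Col6a4 (6.14 and 8.83). This calculation sets the median gene with a mean of at least 100 to a ratio of 1. Over the 9760 genes compared, the log2 fold rose by a median of 0.066 in Ft1sm22ko and 0.145 in Ft1ko hearts. The cause of the larger shift in the 7 chains was not tested. Without division by length, fibrillar shares were 62.6%, 66.3% and 42.6% in Ft1sm22ko, Ft1ko and WT hearts, and basement membrane shares 26.6%, 21.01% and 45.7%. Depth per heart and the spread between hearts are not known, and chains with few normalized counts have wide intervals.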
